A study of Mus musculus with 16 samples.

Results

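The Jun family comprises Jun, Junb and Jund, the 3 mouse genes that encode the Jun subunits of the AP-1 transcription factor. They were taken from a deposited table of raw counts by Ensembl gene identifier, ENSMUSG00000052684 for Jun, ENSMUSG00000052837 for Junb and ENSMUSG00000071076 for Jund. The 3 genes are 3 of 55356 rows in the table, and all 3 had enough counts to be tested among 19156 genes. The cells were primary dorsal root ganglion neurons from CD1 mouse embryos, kept for 6 days in vitro in medium with nerve growth factor, 5-fluoro-2'-deoxyuridine and uridine. The 4 groups, of 4 libraries each, were compared. The inhibitor-plus-nocodazole group received 500 nM GNE3511, an inhibitor of the kinase DLK, for 15 min and then 200 nM nocodazole for 16 h. The inhibitor group received the same pretreatment and then DMSO, the solvent. The nocodazole group received DMSO and then nocodazole, and the DMSO group received DMSO at both steps. All groups share the culture medium and its antimitotic nucleosides, and the study used 1 DLK inhibitor at 1 dose. Libraries were made from total RNA depleted of ribosomal RNA. The labels do not tell whether replicates are separate cultures or animals, so the p-values measure the spread between these libraries, which may be technical.

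AP-1 is a dimer of basic leucine zipper proteins. A Jun protein pairs with another Jun protein, with a Fos protein or with a member of the ATF family, and the dimer binds short palindromic DNA elements. In neurons, damage to the axon or loss of microtubules is known to activate DLK (Map3k12), which acts through MAP kinase kinases on the kinase JNK. JNK phosphorylates the amino-terminal part of the Jun protein, and Jun in turn is known to act on its own promoter. Jun is a classic neuronal injury gene, Junb is an immediate-early gene, and Jund is known for steady expression in many resting cells. Nocodazole depolymerises microtubules.

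The promoters of Jun and Junb are shown because the Jun window holds the elements through which Jun is known to be regulated. The part of these elements in the changes below was not tested. Each window runs from 250 bases before to 50 bases after the RefSeq gene start on GRCm38.p6 (the counts were made on GRCm39), 5′ to 3′ on the gene's strand. Capitals mark, in order, the distal jun element TTACCTCA and the proximal jun element TGACATCA, both searched on both strands.
Jun promoter, chr4:95052173-95052472, minus strand: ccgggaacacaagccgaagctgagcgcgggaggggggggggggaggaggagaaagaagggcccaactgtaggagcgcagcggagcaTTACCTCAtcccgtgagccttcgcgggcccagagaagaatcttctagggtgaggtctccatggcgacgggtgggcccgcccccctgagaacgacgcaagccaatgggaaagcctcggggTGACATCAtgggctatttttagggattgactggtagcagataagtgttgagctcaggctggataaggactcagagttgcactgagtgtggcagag
Junb promoter, chr8:84978699-84978998, minus strand: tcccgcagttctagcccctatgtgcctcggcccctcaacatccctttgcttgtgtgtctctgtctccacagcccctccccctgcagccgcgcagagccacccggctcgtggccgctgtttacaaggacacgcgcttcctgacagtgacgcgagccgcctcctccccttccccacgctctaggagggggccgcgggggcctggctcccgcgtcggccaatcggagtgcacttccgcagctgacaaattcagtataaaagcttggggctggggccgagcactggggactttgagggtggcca
In the Jun window the distal element begins 164 bases before the gene start and the proximal element 45 bases before it. None of these letters, nor the consensus AP-1 element TGACTCA or the cyclic AMP response element TGACGTCA, was in the Junb window on either strand, and neither of those last 2 was in the Jun window. Of 32851 RefSeq promoters of the same length, 5.20% held TGACTCA, 1.79% held TGACGTCA, 3.62% held TGACATCA and 0.889% held TTACCTCA. The Jund window is not printed, since the RefSeq start of that gene lies 1210 bases from its GENCODE start. The Jun and Jund genes each have 1 exon, of 3189 and 1668 bases in the GENCODE annotation of GRCm38, and the longest Junb transcript has 1809 bases.

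Libraries held 30987962 to 43321421 counts. Sensory neuron markers were abundant in every library: the 7 listed genes summed to 4947 to 6532 CPM (counts scaled to library size) in the inhibitor-plus-nocodazole group, 5850 to 7183 in the inhibitor group, 4581 to 5448 in the nocodazole group and 7214 to 8088 in the DMSO group. Tubb3 averaged 1591, 2363, 1014 and 3065 CPM in these groups in the same order, and Prph 2960, 2655, 2844 and 2907 CPM. Of the 7, 6 fell between nocodazole and DMSO, where 19% of all tested genes fell. Between inhibitor plus nocodazole and nocodazole 5 of the 7 rose, where 17.7% of all tested genes rose. The part of these marker changes in the result was not tested. Markers of Schwann and satellite glia summed to 24.7 to 106 CPM over all libraries, most of it S100b, and the defining glial gene Sox10 was below 0.5 CPM in every library. Summed fibroblast markers reached 1.40 to 2.45, 2.04 to 4.39, 5.35 to 8.07 and 2.11 to 5.07 CPM in these groups in the same order, macrophage markers 1.75 to 2.98, 1.57 to 2.76, 4.10 to 5.38 and 2.11 to 2.63 CPM, and endothelial markers 0.639 to 1.30 CPM over all libraries. Malat1, an abundant nuclear RNA, had 8843 to 12089, 8698 to 11988, 11127 to 12921 and 5909 to 8416 CPM in the inhibitor-plus-nocodazole, inhibitor, nocodazole and DMSO libraries, before scaling. Its nocodazole and DMSO libraries did not overlap, as for Jun and Junb, but those of the other groups overlapped the nocodazole libraries, and its part in the result was not tested. Mitochondrial counts made up 1.71%, 1.09%, 0.944% and 0.865% of inhibitor-plus-nocodazole replicates 1 to 4. The inhibitor libraries had 1.08%, 1.39%, 1.78% and 1.06%, nocodazole 1.36%, 1.50%, 0.875% and 0.977%, and DMSO 1.07%, 0.834%, 0.909% and 0.765%. Libraries at 1.36% or more were all in treated groups and had the highest Malat1 of their group. By the sample numbers in the labels, these libraries also formed an unbroken run, which held no DMSO library. In that numbering the nocodazole libraries all came after the first DMSO library and before the other DMSO libraries. What the numbers stand for is not given, so sample order and nocodazole cannot be fully told apart. The part of this split, or of the sample order, in the result was not tested. Every listed cell type marker had counts in at least 1 library. The fibroblast and macrophage sums were highest in the nocodazole group, the group in which Jun and Junb were highest, and their part in the result was not tested. In bulk RNA, fewer cells of a type and less RNA per cell cannot be told apart.

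By the measure below, replicate 4 of the inhibitor group and replicate 1 of the inhibitor-plus-nocodazole group stood apart from the other libraries of their groups. For each, genes were taken that were called and lower by more than 1 log2 unit in the fit without that library, and the left-out library was placed between the other libraries of its group (0%) and the group it was compared with (100%). Inhibitor replicate 4 lay at a median of 37.7% of the way towards DMSO over 223 lowered genes, whereas replicates 1, 2 and 3 lay at -1.15%, -11.8% and -11.4%. Inhibitor-plus-nocodazole replicate 1 lay at 21.2% of the way towards nocodazole over 1230 lowered genes, against 0.185%, -2.19% and -3.89% in replicates 2, 3 and 4. Jun and Jund in inhibitor replicate 4 lay at 28.6% and 28.5%. In inhibitor-plus-nocodazole replicate 1, Junb lay at 52.3%, whereas Jun and Jund lay at -0.255% and 1.40%. Over genes raised by the same rule, the left-out libraries spread more widely: inhibitor replicates 1 to 4 lay at 25.1%, 1.01%, -1.54% and 57.7%, and inhibitor-plus-nocodazole replicates 1 to 4 at 56.2%, -27.2%, 3.04% and -3.27%. In both directions inhibitor replicate 4 and inhibitor-plus-nocodazole replicate 1 lay furthest towards the compared group. Chi-square per degree of freedom, a measure of difference beyond counting noise, split the inhibitor group otherwise. Replicates 1 and 4 were close to each other (15.8), as were 2 and 3 (11.7), against 25.1 to 33.3 for the other pairs. The test results and ratios below that these libraries enter are given with and without them where they move.

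Jun had 0.841, 1.38, 1.40 and 1.44 CPM in the inhibitor-plus-nocodazole libraries (replicates 1 to 4), 1.96, 0.843, 1.50 and 21.1 CPM in the inhibitor libraries, 193, 181, 293 and 223 CPM in the nocodazole libraries and 38.9, 56.5, 94.2 and 91.6 CPM in the DMSO libraries. All 8 libraries without inhibitor were above all 8 with it, and every nocodazole library was above every DMSO library. The inhibitor-plus-nocodazole and inhibitor libraries overlapped, and inhibitor replicate 4 was the 1 inhibitor-treated library above 2 CPM. In raw reads these levels correspond to 29 to 835 counts in the inhibitor-treated libraries and 1251 to 9706 in the others.

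Junb had low levels throughout. It had 2.98, 0.626, 0.341 and 0.989 CPM in the inhibitor-plus-nocodazole libraries, 0.909, 1.71, 2.19 and 0.81 CPM in the inhibitor libraries, 5.90, 5.18, 5.56 and 3.77 CPM in the nocodazole libraries and 0.871, 1.38, 1.91 and 1.83 CPM in the DMSO libraries. The nocodazole libraries stood above the other 12, which overlapped each other, and inhibitor-plus-nocodazole replicate 1 came nearest to them. Junb rested on 11 to 214 counts a library, so its values are the least precise of the family.

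Jund was abundant in all groups, with 59.5, 44.6, 51.2 and 72 CPM in the inhibitor-plus-nocodazole libraries, 55.9, 49.2, 56.8 and 119 CPM in the inhibitor libraries, 298, 292, 368 and 300 CPM in the nocodazole libraries and 228, 261, 299 and 336 CPM in the DMSO libraries. Its levels fell into a high pair of groups without inhibitor and a low pair with it. Within each pair the groups overlapped, and inhibitor replicate 4 was again the highest of its group.

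**Figure D1:**
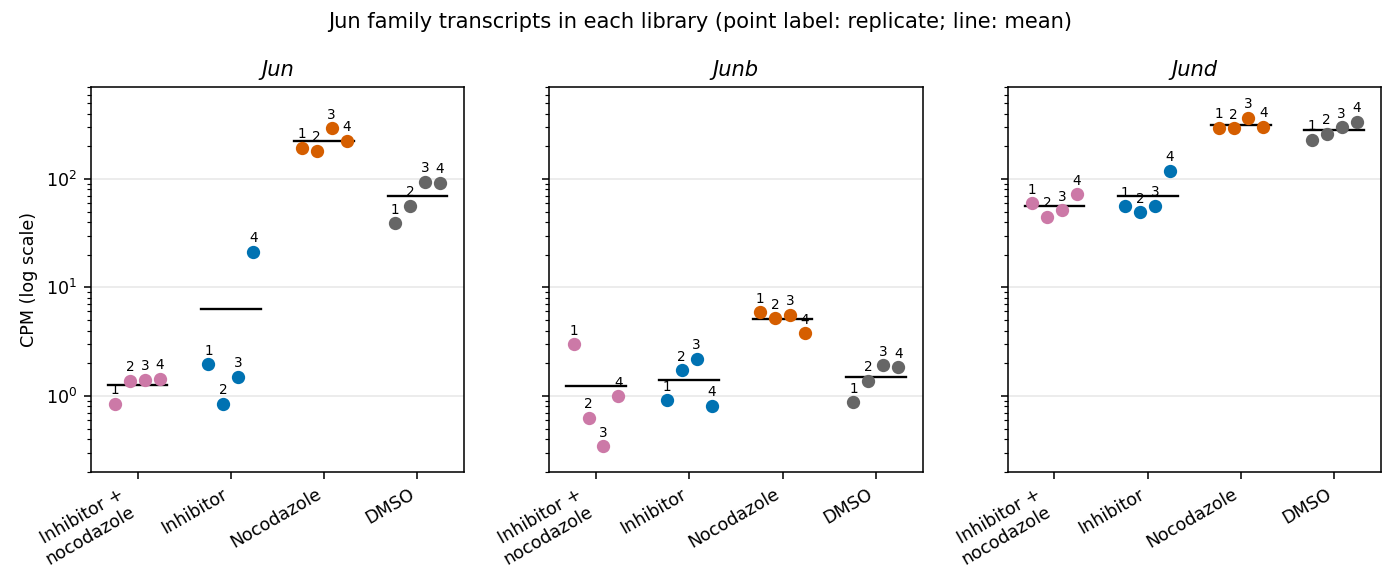
Levels of Jun, Junb and Jund in each of the 16 libraries, in CPM on a log axis, with groups along the x axis, 1 labelled point per replicate and a line at the group mean. The nocodazole libraries were highest for Jun (181 to 293 CPM) and Junb (3.77 to 5.90 CPM), and both inhibitor-treated groups were low for Jun and Jund, with inhibitor replicate 4 the highest of its group for both.

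Nocodazole against DMSO, without inhibitor, asks how the family differs with nocodazole. Jun averaged 223 ± 50.2 CPM in the nocodazole libraries and 70.3 ± 27.1 CPM in the DMSO libraries (SD, n = 4 each), a log2 fold change of 1.66 ± 0.58 (SE, edgeR quasi-likelihood test, adjusted p = 0.0316). Junb averaged 5.10 ± 0.935 CPM in the nocodazole libraries and 1.50 ± 0.479 CPM in the DMSO libraries, a log2 fold change of 1.76 ± 0.47 (edgeR adjusted p = 0.00699). Jund averaged 314 ± 35.8 CPM in the nocodazole libraries and 281 ± 46.5 CPM in the DMSO libraries, and its log2 difference of 0.16 ± 0.22 did not pass (edgeR adjusted p = 0.597). Thus 2 of the 3 genes rose, where 18.6% of all tested genes rose, 19% fell and 37.5% were called in either direction. The call of Jun was lost without nocodazole replicate 3 (edgeR adjusted p = 0.0727) or 4 (0.0541), without DMSO replicate 1 (0.0895) or 2 (0.0809), with robust dispersion estimates (0.0665) and in DESeq2 (0.0914). Without inhibitor replicate 4, which enters the shared spread only, the edgeR adjusted p of that change was 7.66e-05.

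The inhibitor against DMSO, without nocodazole, asks how the family differs with the inhibitor alone. Jun averaged 6.36 ± 9.87 CPM in the inhibitor libraries and 70.3 ± 27.1 CPM in the DMSO libraries, with a log2 fold change of -3.43 ± 0.65 (edgeR adjusted p = 0.00319). Without inhibitor replicate 4 that change was -5.61 ± 0.37 (edgeR adjusted p = 3.31e-07). Jund averaged 70.1 ± 32.5 CPM in the inhibitor libraries and 281 ± 46.5 CPM in the DMSO libraries, with a log2 fold change of -2.0 ± 0.23 (edgeR adjusted p = 0.000126), and of -2.38 ± 0.16 without replicate 4. Junb averaged 1.41 ± 0.662 CPM in the inhibitor libraries and 1.50 ± 0.479 CPM in the DMSO libraries, a log2 difference of -0.11 ± 0.48 that did not pass (edgeR adjusted p = 0.904). So 2 of the 3 genes fell, where 7.24% of all tested genes fell, 5.78% rose and 13% were called.

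The inhibitor plus nocodazole against nocodazole asks how the family under nocodazole differs with the inhibitor. All 3 genes fell, where 16.2% of all tested genes fell, 17.7% rose and 33.9% were called. Jun averaged 1.26 ± 0.284 CPM in the inhibitor-plus-nocodazole libraries and 223 ± 50.2 CPM in the nocodazole libraries, a log2 fold change of -7.48 ± 0.82 (edgeR adjusted p = 3.35e-06). Jund averaged 56.8 ± 11.8 CPM in the inhibitor-plus-nocodazole libraries and 314 ± 35.8 CPM in the nocodazole libraries, a log2 fold change of -2.47 ± 0.24 (edgeR adjusted p = 8.29e-07). Junb averaged 1.23 ± 1.19 CPM in the inhibitor-plus-nocodazole libraries and 5.10 ± 0.935 CPM in the nocodazole libraries, a log2 fold change of -2.01 ± 0.47 (edgeR adjusted p = 0.0033). Without inhibitor-plus-nocodazole replicate 1 the Junb change was -2.95 ± 0.39 (edgeR adjusted p = 2.11e-05).

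Nocodazole given on top of the inhibitor was set against the inhibitor alone. No Jun family gene was called by edgeR or DESeq2, where edgeR called 0.0835% of all tested genes, and 1 of the 3, Jun, had an unadjusted edgeR p under 0.05, as did 5.98% of all tested genes. The log2 difference was -2.38 ± 0.82 for Jun (edgeR adjusted p = 0.553), -0.14 ± 0.49 for Junb (0.999) and -0.30 ± 0.23 for Jund (0.988). Without inhibitor replicate 4 these differences were -0.20 for Jun, -0.34 for Junb and 0.08 for Jund. The size of the Jun difference therefore rested on 1 library with 21.1 CPM, among others of its group at 0.843 to 1.96 CPM.

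Against the DMSO group, which also serves as control above, the inhibitor-plus-nocodazole libraries had less Jun, with a log2 fold change of -5.81 ± 0.79 (edgeR adjusted p = 0.000148), and less Jund, with -2.31 ± 0.23 (1.42e-05). The log2 difference of Junb was -0.25 ± 0.49 (edgeR adjusted p = 0.779). Here 8.48% of all tested genes fell and 16.7% were called. With inhibitor and nocodazole together, Jun and Jund were thus below the levels of neurons that received neither.

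The interaction asks whether the change with nocodazole itself differed with the inhibitor: it subtracts the nocodazole change without inhibitor from the one with it. For Jun it was -4.05 ± 1.00 log2 units (edgeR adjusted p = 0.0105), where 18.7% of all tested genes were called. Without inhibitor replicate 4 it was -1.86 ± 0.52 (edgeR adjusted p = 0.0205). For Junb it was -1.90 ± 0.67 and did not pass (edgeR adjusted p = 0.059). It passed without inhibitor-plus-nocodazole replicate 1 (-2.84, edgeR adjusted p = 0.000862), without inhibitor replicate 4 (0.0435), with no filter on low counts (0.0484) and with offsets for GC content (0.0462). For Jund it was -0.47 ± 0.32 and did not pass (edgeR adjusted p = 0.319).

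**Figure D2:**
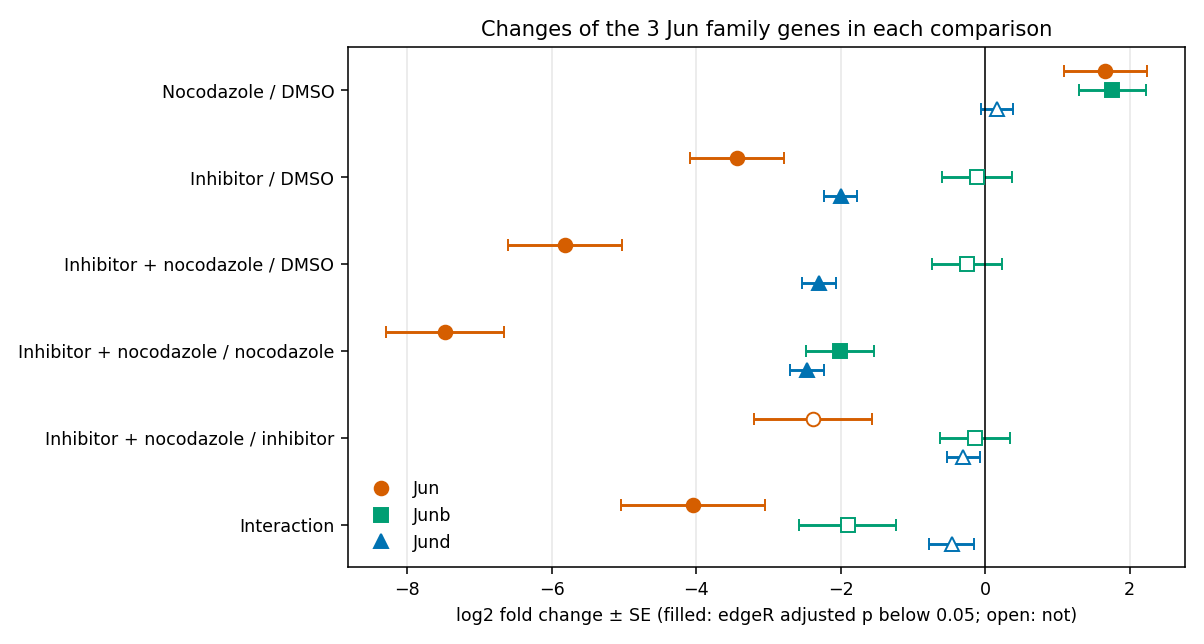
Log2 fold changes of the 3 Jun family genes (x axis) in each comparison (y axis), with SE bars, filled where the edgeR adjusted p was below 0.05. Jun spans the widest range, with -7.48 between inhibitor plus nocodazole and nocodazole and 1.66 between nocodazole and DMSO. Junb is filled in the comparisons with the nocodazole group, and Jund in those of an inhibitor-treated group with one without inhibitor.

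Ratios of counts between members of the same library do not depend on library size. Over 12 ratio comparisons with exact two-sided permutation tests of 4 against 4 libraries, the smallest p the design allows is 0.0286, and after Benjamini-Hochberg adjustment over the 12 none was below 0.05. The Jun to Jund ratio was 0.0143, 0.0312, 0.0276 and 0.0202 in the inhibitor-plus-nocodazole libraries, 0.0352, 0.0174, 0.0267 and 0.178 in the inhibitor libraries, 0.650, 0.620, 0.797 and 0.744 in the nocodazole libraries and 0.170, 0.217, 0.315 and 0.273 in the DMSO libraries. The ratio was higher in every nocodazole library than in any other library. On the log2 scale the ratio differed by 1.56 between nocodazole and DMSO and by -4.97 between inhibitor plus nocodazole and nocodazole (exact permutation p = 0.0286 and adjusted p = 0.0571 for each). Between inhibitor and DMSO it differed by -2.52 (exact permutation p = 0.0571, adjusted p = 0.098), and the inhibitor and DMSO libraries overlapped through inhibitor replicate 4. Without that library the difference was -3.22, and without inhibitor-plus-nocodazole replicate 1 the -4.97 was -4.75.

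The Jun to Junb ratio was 0.285, 2.17, 3.96 and 1.45 in the inhibitor-plus-nocodazole libraries, 2.13, 0.496, 0.688 and 25.7 in the inhibitor libraries, 32.7, 35.0, 52.6 and 58.9 in the nocodazole libraries and 43.9, 40.6, 49.0 and 49.6 in the DMSO libraries. The nocodazole and DMSO libraries overlapped, with a log2 difference of -0.07 (exact permutation p = 0.771, adjusted p = 0.904), so a difference between the rises of Jun and Junb was not detectable. With the inhibitor the ratio was lower in every library, by -4.98 log2 units between inhibitor plus nocodazole and nocodazole and by -4.46 between inhibitor and DMSO (exact permutation p = 0.0286, adjusted p = 0.0571 for each). The Junb to Jund ratio differed by 1.63 between nocodazole and DMSO and by 1.93 between inhibitor and DMSO (exact permutation p = 0.0286, adjusted p = 0.0571 for each), and by 0.01 between inhibitor plus nocodazole and nocodazole (exact permutation p = 1). Without inhibitor replicate 4 the Jun to Junb difference between inhibitor and DMSO was -5.66 and that of Junb to Jund 2.44. Without inhibitor-plus-nocodazole replicate 1 the differences from nocodazole were -4.23 for Jun to Junb and -0.53 for Junb to Jund, the second with its sign turned.

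Levels of different genes were compared per kilobase of transcript. Jund averaged 34.1 CPM per kilobase in the inhibitor-plus-nocodazole group, 42.0 in the inhibitor group, 188.5 in the nocodazole group and 168.5 in the DMSO group. Jun averaged 0.396, 1.99, 69.9 and 22 CPM per kilobase in these groups in the same order, and Junb 0.682, 0.777, 2.82 and 0.828. Jund was the most abundant member in every library. Jun made up 1.17% ± 0.389 of the summed family level in the inhibitor-plus-nocodazole libraries, 3.11% ± 3.60 in the inhibitor libraries, 26.5% ± 2.31 in the nocodazole libraries and 11.2% ± 2.60 in the DMSO libraries (SD, n = 4 each). The Jun share spanned 24.2% to 29.1% in the nocodazole libraries and 8.16% to 14.1% in the DMSO libraries, without overlap. In the inhibitor libraries it was 1.77%, 0.861% and 1.32% in replicates 1 to 3 and 8.48% in replicate 4, which lay inside the DMSO range. The Junb share averaged 1.87% ± 1.70 in the inhibitor-plus-nocodazole libraries, 2.13% ± 1.34 in the inhibitor libraries, 1.09% ± 0.234 in the nocodazole libraries and 0.425% ± 0.0755 in the DMSO libraries. In inhibitor-plus-nocodazole replicate 1 it was 4.38%, against 1.26%, 0.603% and 1.24% in replicates 2 to 4. The place of that mean above the nocodazole mean therefore rested on replicate 1. These levels use a Jund length of 1668 bases. With the RefSeq gene length of 2878 bases, Jund averaged 19.7, 24.4, 109 and 97.6 CPM per kilobase, and it was still above the Jun mean in every group. With that length the Jun share was 1.98% ± 0.666, 5.09% ± 5.79, 38.1% ± 2.83 and 17.8% ± 3.82 in the same order of groups, over 1.5 times the share given above in each group except nocodazole, and its nocodazole and DMSO libraries still did not overlap (35.3% to 41.3% and 13.3% to 22%).

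**Figure D3:**
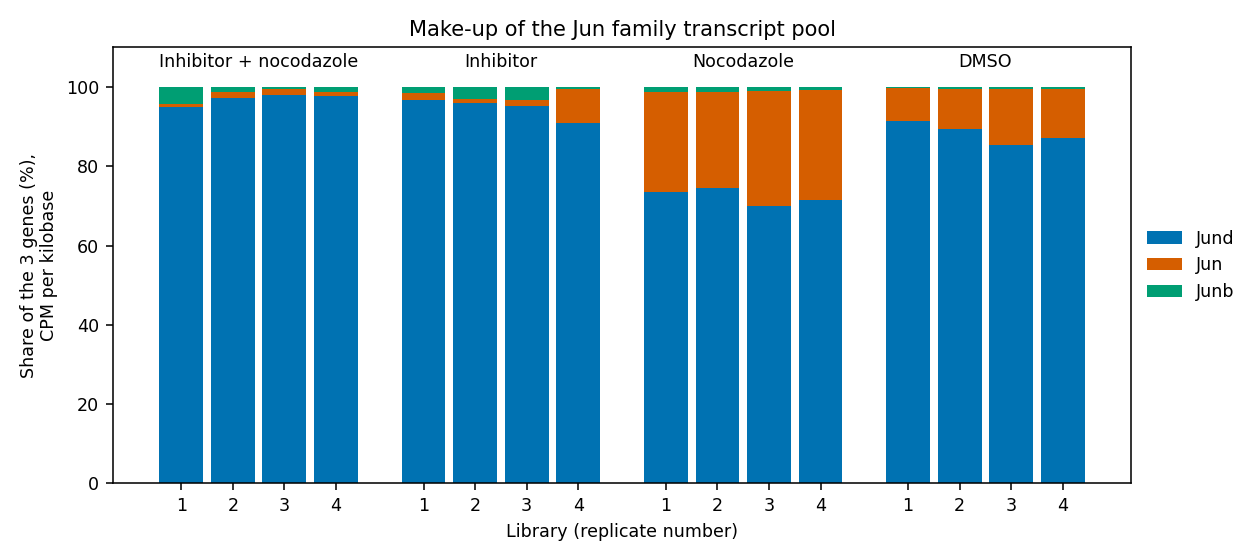
Make-up of the Jun family transcript pool, as the share (%) of each gene in the summed CPM per kilobase (y axis) of each library (x axis, grouped by treatment). Jund is the largest part throughout, and Jun takes 24.2% to 29.1% in nocodazole libraries against at most 14.1% elsewhere, with the Jund length of 1668 bases.

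Each member has an annotated gene on the opposite strand that shares exon bases with it, and the strand setting of the counting is not given, so reads of the partners cannot be told apart. Gm11175 shares 877 exon bases with Jund. It had 41, 38, 23 and 26 counts in the inhibitor-plus-nocodazole libraries, 29, 32, 41 and 73 in the inhibitor libraries, 235, 271, 322 and 165 in the nocodazole libraries and 132, 136, 121 and 121 in the DMSO libraries. Its log2 change was -3.03 between inhibitor plus nocodazole and nocodazole (edgeR adjusted p = 3.23e-07) and -1.58 between inhibitor and DMSO (0.00105), and unlike the called changes of Jund it also rose with nocodazole, by 1.02 (0.00271). Junos shares 232 exon bases with Jun and had 4 to 25 counts a library, against at least 29 for Jun. Prdx2, a peroxiredoxin gene, shares 173 exon bases with Junb and averaged 296 ± 37.1, 289 ± 22.1, 292 ± 24.9 and 319 ± 31.2 CPM in the inhibitor-plus-nocodazole, inhibitor, nocodazole and DMSO groups. Its log2 difference was -0.13 between nocodazole and DMSO and 0.02 between inhibitor plus nocodazole and nocodazole, and edgeR called neither.

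The genes whose profile came closest to each member were found from the root mean square difference of log2 CPM, each centred on its own mean, over the 16 libraries. For Jun, whose own root mean square distance from its mean was 3.22 log2 units, these were Gprc5c (1.11), Dusp1 (1.14), Slc44a5 (1.32), Creb5 (1.46) and Cd300a (1.53). Gprc5c, an orphan G-protein-coupled receptor gene, averaged 1.21, 2.33, 45.0 and 21.4 CPM in the inhibitor-plus-nocodazole, inhibitor, nocodazole and DMSO groups. For Junb, with 1.12 log2 units about its mean, the closest were Rhoc (0.327), Csrp1 (0.427), Gm15533 (0.451), March1 (0.452) and Nab2 (0.459), and Rhoc, a small GTPase gene, averaged 5.90, 5.68, 21.7 and 7.85 CPM in that order of groups. For Jund, with 1.19 log2 units about its mean, they were Nectin4 (0.349), Sh2d3c (0.383), Rps6kl1 (0.384), Gpr137c (0.407) and Rasl10a (0.413), and Sh2d3c, a signalling adaptor gene, averaged 11.2, 17.0, 104 and 86.4 CPM. None of these genes was a family member: Jund ranked 31 and Junb 282 in closeness to Jun, and Junb ranked 1505 in closeness to Jund. In the other direction Jun ranked 19063 in closeness to Junb and 18959 to Jund, and Jund 4163 to Junb. The distance is not scaled to the range of a gene, so genes with a small range lie far from Jun whatever their order of groups.

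Genes that encode possible dimer partners of Jun include some of the largest nocodazole changes described here. Of 11 listed, 8 were tested (Batf, Batf2 and Batf3 had too few counts), 5 of the 8 rose between nocodazole and DMSO, and their median log2 change was 2.26, against 0.01 over all tested genes, of which 18.6% rose. Atf3, an injury-induced ATF gene, had 5.60, 2.60, 3.13 and 2.71 CPM in the inhibitor-plus-nocodazole libraries, 1.13, 2.35, 2.41 and 1.47 in the inhibitor libraries, 184, 162, 216 and 163 in the nocodazole libraries and 2.36, 1.52, 8.48 and 4.65 in the DMSO libraries. It rose by 5.38 ± 0.39 log2 units with nocodazole (edgeR adjusted p = 4.96e-08) and changed by -5.67 ± 0.39 between inhibitor plus nocodazole and nocodazole (3.22e-08). Its DMSO libraries overlapped those of both inhibitor-treated groups, whereas for Jun the DMSO libraries stood above them. Fos, the immediate-early partner, rose by 4.46 ± 0.44, Fosl2 by 3.21 ± 0.18 and Fosl1 by 3.14 ± 0.68 with nocodazole, though Fos stayed at 2.67 to 5.82 CPM and Fosl1 averaged 0.942 CPM in those libraries. In each of the other groups Fos averaged at most 0.185 CPM and Fosl1 at most 0.117 CPM. Both thus had enough counts to be tested only through the nocodazole group. The counts and medians of this list include Fos and Fosl1, so they are not independent of the high levels in that group. Between inhibitor plus nocodazole and nocodazole, 4 of the 8 fell (Fos, Fosl1, Fosl2 and Atf3) and 2 rose, Atf2 by 0.24 and Atf7 by 0.23, where 33.9% of all tested genes were called. Between inhibitor and DMSO, where Jun and Jund fell, 1 of the 8 was called, Atf7, which rose by 0.31, a share near the 13% over all tested genes. The interaction was called for 4 of the 8 (18.7% of all tested genes), Fos, Fosl1, Fosl2 and Atf3, with a list median of -2.09 log2 units against -0.003 over all tested genes.

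Dual-specificity phosphatases that dephosphorylate JNK and its relatives were described as the counterpart of the kinases that act on Jun. Of 5, 4 rose between nocodazole and DMSO, 4 fell between inhibitor and DMSO and all 5 fell between inhibitor plus nocodazole and nocodazole. The shares over all tested genes in the same directions were 18.6%, 7.24% and 16.2%. Dusp1 had 2.14, 0.877, 1.49 and 1.50 CPM in the inhibitor-plus-nocodazole libraries, 1.05, 0.639, 1.44 and 3.47 in the inhibitor libraries, 103, 78.5, 118 and 89.0 in the nocodazole libraries and 8.34, 10.5, 15.3 and 13.1 in the DMSO libraries. As for Jun, inhibitor replicate 4 was the highest inhibitor library for Dusp1. Dusp1 fell by 2.81 ± 0.34 log2 units between inhibitor and DMSO (edgeR adjusted p = 0.000176) and rose by 3.03 ± 0.29 with nocodazole (9.93e-07). Dusp16 averaged 1.82, 2.50, 27.4 and 9.87 CPM in the inhibitor-plus-nocodazole, inhibitor, nocodazole and DMSO groups, and Dusp8 65.5, 75.6, 207 and 171 CPM. Dusp4 averaged 2.75 CPM with inhibitor plus nocodazole, with replicate 1 at 7.93 CPM, and 26.0 CPM with nocodazole, and was not called between inhibitor and DMSO (log2 difference -0.43 ± 0.76, edgeR adjusted p = 0.738).

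Transcripts of the kinases and scaffolds upstream of Jun moved by small amounts. Of 12 listed genes of the pathway between DLK and JNK, 1 rose and 6 fell between nocodazole and DMSO, 4 fell between inhibitor and DMSO, and 2 rose and 3 fell between inhibitor plus nocodazole and nocodazole. Over all tested genes 37.5%, 13% and 33.9% were called in these comparisons, so the last count was near the background. The called log2 changes in these comparisons lay between -0.58 and 0.28. Sh3rf1, a JNK scaffold gene, fell by 0.58 ± 0.08 with nocodazole, Mapk8ip2, another scaffold gene, by 0.42 ± 0.06, and Map2k4, a JNK kinase gene, by 0.36 ± 0.06. Map3k13, which encodes the DLK-related kinase LZK, rose by 0.20 ± 0.06 with nocodazole and fell by 0.23 ± 0.06 with the inhibitor. Between inhibitor plus nocodazole and nocodazole it changed by -0.37 ± 0.06. Map3k12, which encodes the inhibited kinase and was singled out after its values were seen, averaged 117, 120, 96.0 and 122 CPM in the inhibitor-plus-nocodazole, inhibitor, nocodazole and DMSO groups. Its called log2 changes were -0.35 ± 0.06 between nocodazole and DMSO and 0.28 ± 0.06 between inhibitor plus nocodazole and nocodazole.

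Genes whose proteins bind or turn over Jun family proteins also moved by small amounts. Of 7, 3 fell between nocodazole and DMSO, 2 fell between inhibitor and DMSO, and 3 rose between inhibitor plus nocodazole and nocodazole. Of all tested genes 19% fell, 7.24% fell and 17.7% rose in these comparisons, and 37.5%, 13% and 33.9% were called in either direction. The counts of 3 of 7 were near the shares in either direction and above those in 1 direction. Each count rested on at most 3 genes. Fbxw7, the substrate receptor of a ubiquitin ligase that targets Jun, fell by 0.70 ± 0.10 log2 units with nocodazole (edgeR adjusted p = 5.87e-05) and was 0.46 ± 0.10 higher with inhibitor plus nocodazole than with nocodazole (0.00208). Men1, which encodes menin, a binding partner of JunD, fell by 0.40 ± 0.06 with nocodazole and by 0.22 ± 0.06 with the inhibitor, and was 0.22 ± 0.06 higher with inhibitor plus nocodazole than with nocodazole. Cops5, which encodes a Jun-binding subunit of the COP9 signalosome, fell by 0.28 ± 0.08 with the inhibitor, and Det1, a ubiquitin ligase component gene, was 0.29 ± 0.10 higher with inhibitor plus nocodazole than with nocodazole.

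Of 6 genes linked to Jun in neurons, 4 rose between nocodazole and DMSO, 1 fell between inhibitor and DMSO and 5 fell between inhibitor plus nocodazole and nocodazole. Of all tested genes 18.6% rose, 7.24% fell and 16.2% fell in these comparisons, so the 1 of 6 between inhibitor and DMSO was near the background. Bbc3, which encodes the death effector PUMA, had 47.8, 34.4, 40.3 and 43.5 CPM in the inhibitor-plus-nocodazole libraries, 28.0, 41.1, 37.7 and 30.4 in the inhibitor libraries, 127, 137, 182 and 143 in the nocodazole libraries and 30.5, 28.2, 48.1 and 45.8 in the DMSO libraries. The nocodazole libraries stood above the other 12, which overlapped, as for Junb. Bbc3 rose by 1.95 ± 0.18 log2 units with nocodazole (edgeR adjusted p = 5.32e-07), and Bcl2l11, which encodes the death effector BIM, by 1.87 ± 0.17 (4.15e-07). Cd44, a hyaluronan receptor gene, averaged 74.4, 79.1, 158 and 128 CPM in the inhibitor-plus-nocodazole, inhibitor, nocodazole and DMSO groups. It fell by 0.69 ± 0.18 between inhibitor and DMSO (edgeR adjusted p = 0.0172) and was the 1 gene of the 6 to fall there. Itga7, an integrin gene, rose by 0.57 ± 0.10 with nocodazole. Between inhibitor plus nocodazole and inhibitor, none of the 38 tested genes of the 5 lists was called by edgeR, 4 (Atf3, Bcl2l11, Fosl2 and Jdp2) had an unadjusted edgeR p under 0.05, beside 5.98% of all tested genes, and DESeq2 called 0.

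**Figure D4:**
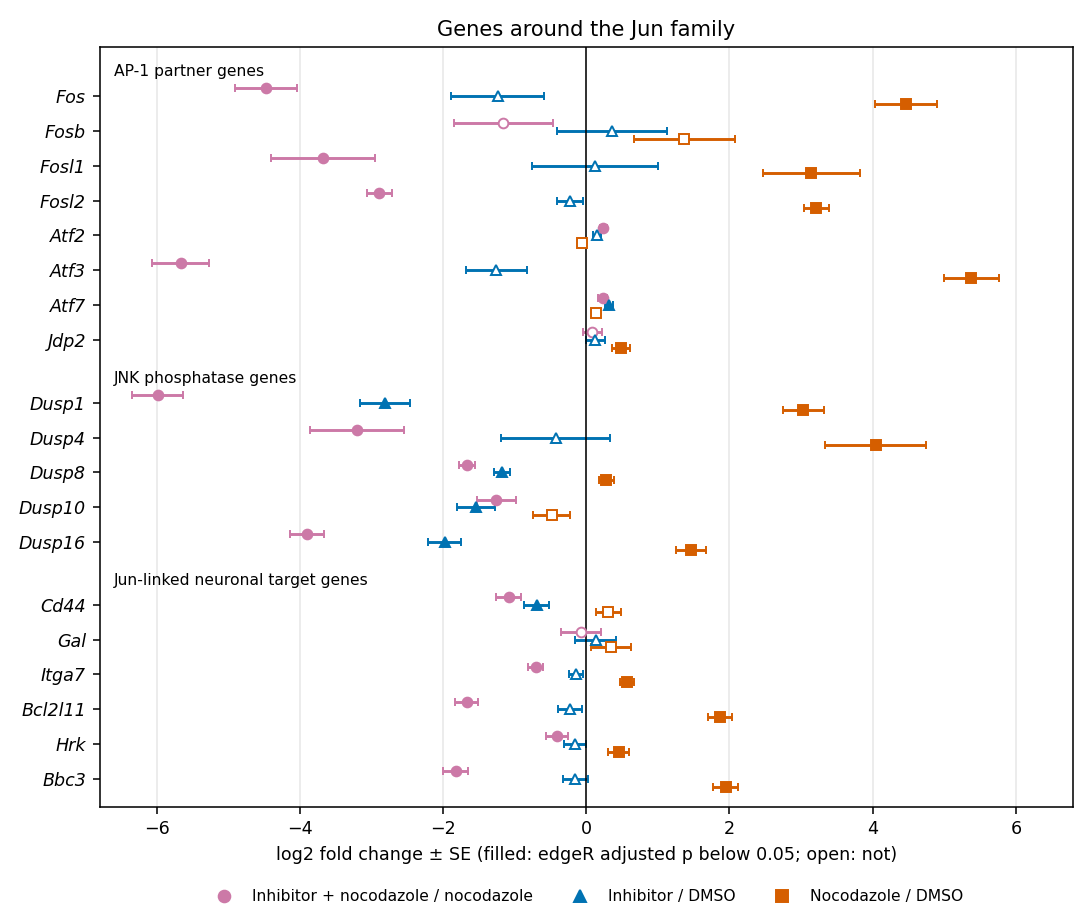
Log2 fold changes (x axis, with SE bars) of the tested AP-1 partner, JNK phosphatase and Jun-linked genes (y axis) in 3 comparisons, filled where the edgeR adjusted p was below 0.05. Atf3, Fos, Fosl1 and Fosl2 lie right of 3 with nocodazole and left of -2.8 where the inhibitor was added, while with the inhibitor alone the called decreases are those of 4 phosphatase genes and Cd44.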

How the data were processed

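The authors deposited whole-number counts per Ensembl gene identifier for all 16 libraries. Per the submitters' processing notes, STAR and Salmon were used with GRCm39, with no versions or roles, so the counts could be rounded estimates, and the strand setting is not given in the sources used here. Symbols came from GENCODE and promoter sequences from RefSeq, both on GRCm38, and 52080 identifiers (94.1%) matched a symbol.

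Counts were fitted with edgeR 4.0.16 (limma 3.58.1, R 4.3.3) by the quasi-likelihood test: TMM scaling (factors 0.959 to 1.06), filterByExpr, 1 mean per group over 16 libraries, and Benjamini-Hochberg adjustment over 19156 genes, called below 0.05. CPM are counts scaled by these library sizes to a common total. Likeness used a prior count of 2 and ratios a pseudocount of 0.5. The scripts were tested on simulated data. Replicates of a group differed beyond counting noise (chi-square per degree of freedom 8.28 to 51.3 over 24 pairs). In the nocodazole group replicates 1 and 2 (11.2) and replicates 3 and 4 (13.8) were closest, against 23.6 to 39.8 for the other pairs. Inhibitor-plus-nocodazole replicate 1 lay at 49.6 to 51.3 from the others of its group. Alternatives were DESeq2 1.42.0, other scaling, filters, dispersion and GC offsets, a replicate block, a fit of the compared groups alone and leaving out each library. For list genes, at most 4 called members per list with the largest log2 changes were named. The members and lists were chosen with earlier results of these data known.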

Additional observations from a re-analysis of the deposited data

Results flagged for a closer look

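In a group of 4 libraries, a value far from its nearest neighbour was picked out by Dixon's test, which picks out about 1 in 20 groups by chance, and 24 groups were tested. Jun in inhibitor replicate 4, at 21.1 CPM against 0.843 to 1.96 CPM in the others, and Jund in the same library, at 119 CPM against 49.2 to 56.8 CPM, were each far above the rest of the group. Jun in inhibitor-plus-nocodazole replicate 1, at 0.841 CPM, was below the 1.38 to 1.44 CPM of the others. Jund in nocodazole replicate 3, at 368 CPM, was above the 292 to 300 CPM of the others. The nocodazole change of Jun differed with the inhibitor, by -4.05 log2 units in the interaction test, and the part of inhibitor replicate 4 in its size is shown by the value without that library, -1.86.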

How the results depend on the processing

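Of the 18 member results, each under up to 24 alternatives, Jun kept its direction throughout and lost calls only for nocodazole against DMSO. That call was lost with robust dispersions (1.66), in DESeq2 (1.66) and in 4 of the 16 fits that left out 1 library. Those 4 left out nocodazole replicate 3 or 4 or DMSO replicate 1 or 2. Over the 16 fits the change ranged over 1.46 to 1.83. Junb, not called between inhibitor and DMSO, turned to 0.011 with GC offsets, and leaving out 1 library gave -0.40 to 0.085 there, -1.08 to 0.16 for inhibitor plus nocodazole against inhibitor and -1.19 to 0.034 against DMSO. The Junb interaction passed with no filter (-1.87) and GC offsets (-1.99), and ranged over -2.84 to -1.59 without 1 library. Jund against inhibitor alone gave -0.44 to 0.076 without 1 library. The cause was not tested. Of the list counts, AP-1 partners called between inhibitor and DMSO were 2 with no filter and 2 in the fit of those groups alone, in place of 1, and 1 to 2 without 1 library; their interaction calls were 2 to 4. Pathway genes called without 1 library were 1 to 6 between inhibitor and DMSO and 2 to 5 between inhibitor plus nocodazole and DMSO, in place of 4. Regulators called, in place of 2, were 1 with GC offsets and 1 with replicate block and GC offsets between inhibitor and DMSO (0 to 3 without 1 library), and 1 with no filter, 1 with a replicate block, 1 with GC offsets and 1 with both between inhibitor plus nocodazole and DMSO (0 to 3). Jun-linked genes called between inhibitor and DMSO were 0 to 1. Replicate numbers showed no clear pairing: over 24 same-numbered pairs deviations correlated at -0.399 to 0.232, 8 of them above 0.1, and 5 of 16 libraries matched their own number best. The median was 0.0261 for same-numbered pairs and -0.0143 for other pairs. With 4 libraries a group, this check cannot exclude a pairing. Some libraries with different replicate numbers correlated more strongly. Inhibitor-plus-nocodazole replicate 1 did so with inhibitor replicate 2 (0.452) and nocodazole replicate 2 (0.355), but not with nocodazole replicate 4 (-0.306). The first 3 of these libraries lie in the run of sample numbers described above, and nocodazole replicate 4 does not. A link between libraries of different replicate numbers entered no fit. With a replicate block Jun changed by 1.78 with nocodazole (edgeR adjusted p = 0.0118), the Junb interaction stayed uncalled (0.0819), and no member's call changed. Over all genes, calls between inhibitor and DMSO were 1242 without inhibitor replicate 2 and 1274 without DMSO replicate 4, in place of 2494, and those between inhibitor plus nocodazole and inhibitor 3 to 128, in place of 16. Counts of 11 to 214 limit the precision of Junb most.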
